A study of Mus musculus with 52 samples.

Results

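The Cd209 lectins and 2 genes of lymph node sinus macrophages were followed across lymph node, tumor and blood of mice given CD40-directed antibodies. The 9 genes were taken by name as Cd209a, Cd209b, Cd209c, Cd209d, Cd209e, Cd209f, Cd209g, Siglec1 and Marco, and all 9 were found among the 57010 genes of the deposited table. They were picked because Cd209a differed between the 2 drugs in lymph node. Levels under ATOR-4066 and under CD40 mAb in lymph node are therefore given as a description with no test.

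The animals were hCD40tg mice, which carry human CD40, and all bore tumors of MC38-CEACAM5, a mouse colon carcinoma line that expresses the surface antigen CEACAM5. They received ATOR-4066, an antibody with one specificity for CD40 and another for CEACAM5, a CD40 monoclonal antibody (CD40 mAb), or vehicle. Vehicle animals thus shared the human CD40 transgene and the CEACAM5-expressing tumor with the treated ones. The promoter that drives the transgene, the doses, the times of sampling and the age and sex of the mice are not stated in the labels. Polyadenylated RNA was sequenced from lymph node in 5 ATOR-4066, 4 CD40 mAb and 4 vehicle libraries, and from whole tumor in 4 ATOR-4066, 5 CD40 mAb and 4 vehicle libraries. CD45+Ly6G- cells, leukocytes without neutrophils, were sorted from tumors of other animals in 3 ATOR-4066, 3 CD40 mAb and 4 vehicle libraries. Blood was sequenced in 4 ATOR-4066, 5 CD40 mAb and 5 vehicle libraries. Lymph node, tumor and blood libraries of 1 treatment that carry the same number in the title were read as 1 animal.

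Of the 52 libraries, 50 were used, with totals between 30.2 and 138 M estimated counts, and haemoglobin genes took 69.8 to 88.2% of the counts in blood. The library labelled lymph node vehicle 3 held 218.2 CPM (the count of a gene set on a common library total) of Ptprc, which encodes the pan-leukocyte protein CD45, where the vehicle lymph nodes kept held 811.5 to 1051 CPM, with Cd209b at 0.24 CPM and Marco at 0.532 CPM. The library labelled whole tumor ATOR-4066 3 held 855.2 CPM of Ptprc, against 185.5 to 427.4 CPM in the other ATOR-4066 tumors, with Cd209b at 21.2 CPM and Marco at 20.7 CPM. Both went against their labelled tissue and were left out, and values with them kept in are given where a call depends on it. These CPM are on library sizes scaled within each material with its left-out library included. All CPM below, unless said otherwise, are on library sizes scaled within 1 material without it. Neither kind is comparable between materials.

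Cd209 proteins are C-type lectins, surface receptors that bind mannose- and fucose-bearing glycans on microbes and on host cells, and they are the mouse relatives of human DC-SIGN. Cd209a marks type 2 conventional dendritic cells and monocyte-derived dendritic cells, and Cd209b (SIGN-R1) marks macrophages of the lymph node medulla and of the splenic marginal zone, where it captures bacterial polysaccharides. Cd209d recognises mycobacteria, and Cd209f and Cd209g are known from resident macrophages of tissues. Siglec1 (CD169, sialoadhesin) binds sialic acid, is induced by type I interferon and marks macrophages of the subcapsular and medullary sinuses. Marco is a scavenger receptor of medullary and marginal zone macrophages that binds bacteria and particles carried in lymph. CD40 itself is a receptor of dendritic cells, B cells and macrophages through which T cells activate them.

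The 7 Cd209 genes lie within 394.3 kb of chromosome 8 at chr8:3743397-4137707 (GRCm38), in the order Cd209a, Cd209e, Cd209d, Cd209b, Cd209c, Cd209f and Cd209g, among 18 annotated genes. All but Cd209g are on the minus strand. Marco lies at chr1:120474538-120505024 and Siglec1 at chr2:131069220-131086765, both on the minus strand. The deposited identifiers are ENSMUSG00000031494 for Cd209a, ENSMUSG00000065987 for Cd209b, ENSMUSG00000040165 for Cd209c, ENSMUSG00000031495 for Cd209d, ENSMUSG00000040197 for Cd209e, ENSMUSG00000051906 for Cd209f, ENSMUSG00000079168 for Cd209g, ENSMUSG00000027322 for Siglec1 and ENSMUSG00000026390 for Marco. Cd209f shared 36.3% of its 31-base words with Cd209g, and Cd209g shared 20.1% of its own with Cd209f. Their counts were fractional in 30 of 52 libraries each, so reads may be split between them and their 2 values are not independent. Cd209c shared 19.9% of its words with other genes, while Cd209a, Cd209b, Cd209d, Cd209e and Marco shared none and Siglec1 1.66%.

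RefSeq promoters of build GRCm38.p6, 250 bases before to 50 after the start, were found for 8 of the 9 genes. Those of Cd209a and Cd209e are printed because the levels of these genes moved together in lymph node, with the letters TTCCGG in capitals, the reverse complement of the ETS-family core CCGGAA. Cd209c moved with Cd209a more closely still, and its promoter, which is not printed, holds no CCGGAA on either strand. That window, chr8:3946814-3947113, lies inside the annotated Cd209c gene, chr8:3940222-3954746 on the minus strand, and not at its annotated start. Nothing is therefore read from the absence of CCGGAA there. Those of Cd209f and Cd209g are printed because these genes share reads, with the 180-base run common to both in capitals.
Cd209a, chr8:3748935-3749234, minus strand: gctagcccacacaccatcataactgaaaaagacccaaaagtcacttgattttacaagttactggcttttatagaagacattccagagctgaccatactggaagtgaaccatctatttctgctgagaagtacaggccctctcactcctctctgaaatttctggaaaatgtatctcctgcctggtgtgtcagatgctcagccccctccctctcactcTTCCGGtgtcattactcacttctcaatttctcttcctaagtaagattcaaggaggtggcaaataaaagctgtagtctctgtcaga
Cd209e, chr8:3854237-3854536, minus strand: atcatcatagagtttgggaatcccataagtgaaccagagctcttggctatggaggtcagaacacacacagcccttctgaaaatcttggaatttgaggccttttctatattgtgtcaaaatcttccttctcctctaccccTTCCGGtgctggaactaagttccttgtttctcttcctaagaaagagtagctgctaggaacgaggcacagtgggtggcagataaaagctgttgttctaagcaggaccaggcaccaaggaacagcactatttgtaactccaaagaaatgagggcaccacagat
Cd209f, chr8:4105715-4106014, minus strand: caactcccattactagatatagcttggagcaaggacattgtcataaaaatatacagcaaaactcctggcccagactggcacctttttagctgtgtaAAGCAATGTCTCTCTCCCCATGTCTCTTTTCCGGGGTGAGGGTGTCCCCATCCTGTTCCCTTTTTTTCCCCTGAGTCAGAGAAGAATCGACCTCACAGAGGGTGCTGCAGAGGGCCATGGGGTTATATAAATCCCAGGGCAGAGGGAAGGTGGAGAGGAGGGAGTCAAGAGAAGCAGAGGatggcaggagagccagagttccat
Cd209g, chr8:4134486-4134785, plus strand: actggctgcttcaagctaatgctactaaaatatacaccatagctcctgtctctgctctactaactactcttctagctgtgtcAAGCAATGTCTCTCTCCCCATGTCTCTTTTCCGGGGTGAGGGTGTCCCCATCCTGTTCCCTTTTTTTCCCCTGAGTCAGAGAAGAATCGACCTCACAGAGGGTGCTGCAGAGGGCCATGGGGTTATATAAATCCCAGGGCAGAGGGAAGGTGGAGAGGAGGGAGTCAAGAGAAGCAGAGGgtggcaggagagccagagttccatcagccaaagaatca
Among all other pairs of these promoters the longest common run was 17 bases, between Cd209a and Cd209b. CCGGAA, searched on both strands and chosen after these promoters were read, was present in 5 of 8 member promoters, those of Cd209a, Cd209b, Cd209e, Cd209f and Cd209g, and in 14.9% of 32851 promoters of the same length. Its first base lay at -35 in Cd209a, -38 in Cd209b, -111 in Cd209e, -126 in Cd209f and -140 in Cd209g, counted from the start. The matches of Cd209f and Cd209g lie within the run their promoters share, so they are the same stretch of sequence counted for both genes. GAGGAA, the core bound by PU.1, was found on either strand in 2 of 8, Cd209d and Marco, and in 28.3% of all promoters. CCGGAA and GAGGAA share the letters GGAA, and a match is a run of letters, not a measured binding site.

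In vehicle lymph node the 9 genes spanned a wide range of levels per length of exon. Cd209b averaged 84.9 ± 28.3 CPM per kb and Marco 58.9 ± 15.2 CPM per kb (SD, n = 4). Cd209d followed with 18.0 ± 2.56 CPM per kb, then Siglec1 with 8.76 ± 2.6 CPM per kb, Cd209f with 6.62 ± 1.96 CPM per kb and Cd209a with 6.08 ± 1.88 CPM per kb. Cd209e averaged 3.27 ± 1.80 CPM per kb, Cd209g 1.62 ± 0.623 CPM per kb and Cd209c 0.289 ± 0.126 CPM per kb. Cd209b and Marco overlapped, as did each neighbouring pair from Siglec1 down to Cd209g, whereas Cd209d lay apart from both its neighbours and Cd209c lay below all others. The lymph node label was matched by Ptprc at 811.5 to 1051 CPM, scaled with the left-out library included. It was also matched by the sinus macrophage genes Cd209b and Marco, the most abundant members there.

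Cd209a was the member that changed most clearly. It read 5.58, 5.01, 3.10, 7.84 and 6.50 CPM in ATOR-4066 lymph nodes, 0.37, 0.36, 0.62 and 1.10 CPM in CD40 mAb lymph nodes and 12.5, 8.87, 5.79 and 11.4 CPM in vehicle lymph nodes. All 4 CD40 mAb libraries were low, below every library of the other 2 groups, and the ATOR-4066 and vehicle ranges overlapped. The underlying estimated counts were 165 to 906 under ATOR-4066, 17 to 53 under CD40 mAb and 325 to 690 under vehicle. Cd209a fell under CD40 mAb relative to vehicle by 3.97 on the log2 scale (SE 0.415), 15.7-fold lower, with an adjusted p of 0.00669 by edgeR's quasi-likelihood test with Benjamini-Hochberg adjustment over all genes. These CD40 mAb libraries also took part in the choice of Cd209a, so this p is not independent of that choice. The value was -3.77 without CD40 mAb 2 (adjusted p 0.0518), -3.98 without CD40 mAb 4 (adjusted p 0.0716) and -3.71 with the library labelled vehicle 3 kept in (adjusted p 0.0844), and the call held in 6 of 8 fits that left out 1 library each. In bulk RNA, fewer cells of a type and less RNA per cell cannot be told apart.

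Cd209a was 1 of 9 members called in lymph node under CD40 mAb, where 0.0643% of 18671 genes, 12 in all, passed the same test. That count lay between 0 (without CD40 mAb 2 or 4) and 18 (without CD40 mAb 5) when 1 library was left out, and was 1 without vehicle 4 or 5, 2 without vehicle 1, 4 without CD40 mAb 3 and 7 without vehicle 2. At an unadjusted p under 0.05 there were 6 of 9 members and 4409 genes, and DESeq2 called 3 members and 1755 genes. In 6 of 9 members (Cd209a, Cd209c, Cd209d, Cd209e, Cd209f and Cd209g) all CD40 mAb libraries lay below all vehicle libraries, and 17.7% of all genes did not overlap in this comparison. Under ATOR-4066, 0 of 9 members were called against vehicle by edgeR, as were 0% of all genes. At an unadjusted p under 0.05 there were 3 of 9 members and 2954 genes, and DESeq2 called 0 members and 504 genes. In 2 of 9 members, Cd209f and Cd209g, all ATOR-4066 libraries lay below all vehicle libraries, against 5.11% of genes. The Cd209a difference between ATOR-4066 and vehicle was -0.78 on the log2 scale (SE 0.339, adjusted p 0.296, edgeR).

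Between the 2 drugs, the comparison the genes were picked on, Cd209a averaged 5.60 ± 1.76 CPM in ATOR-4066 lymph nodes (SD, n = 5) and 0.611 ± 0.346 CPM in CD40 mAb lymph nodes (SD, n = 4), a 9.15-fold difference or 3.19 on the log2 scale. Cd209e was 5.67-fold and Cd209c 3.7-fold higher under ATOR-4066, also with all ATOR-4066 libraries above all CD40 mAb libraries. These 3 of 9 members did not overlap in a comparison where 2.49% of genes did not overlap and 0.0161% passed the test. Nothing is read from these shares, since this comparison chose the genes.

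**Figure D1:**
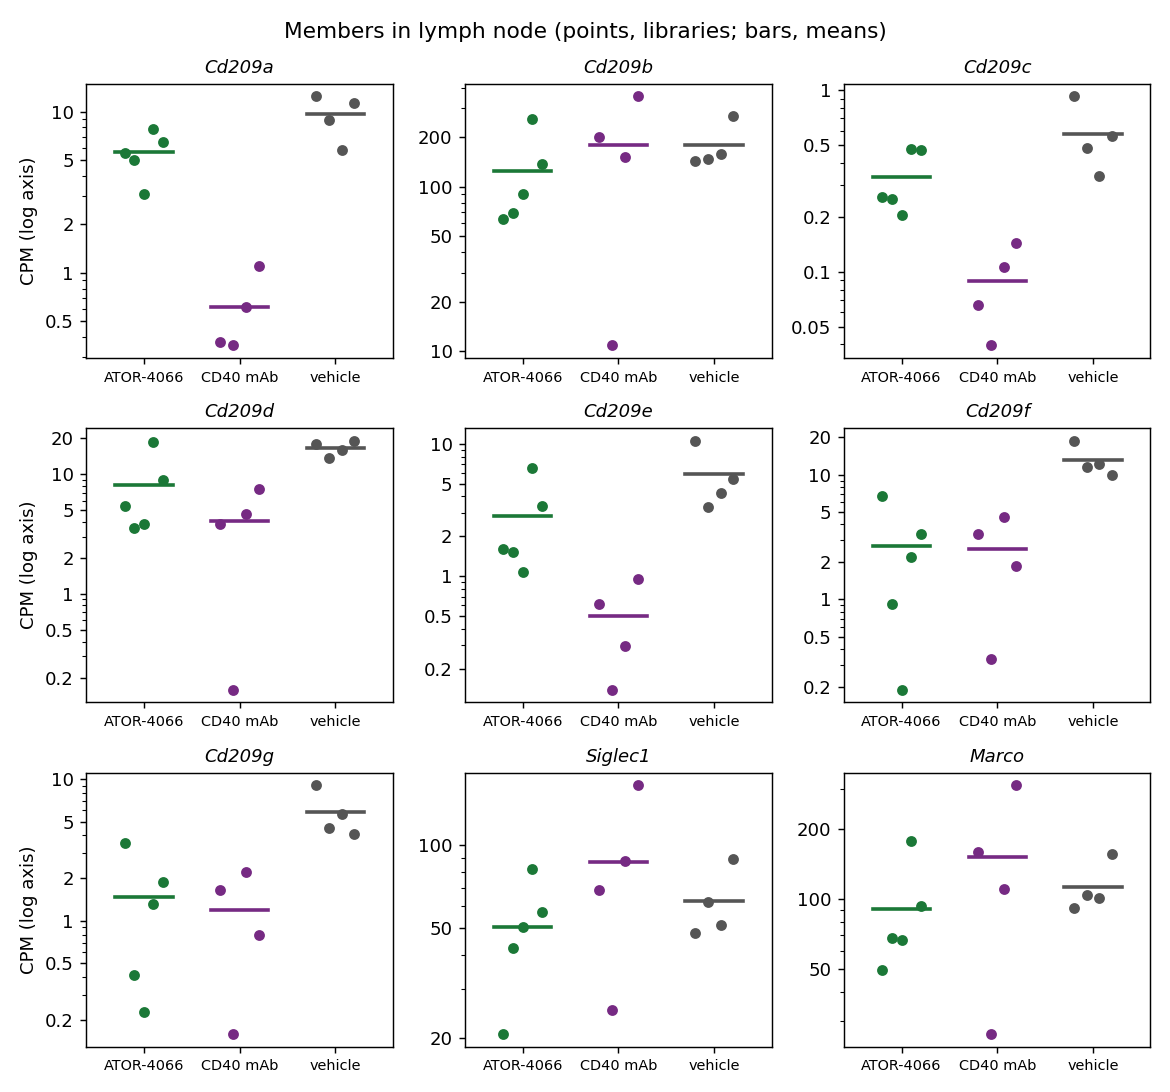
Levels of the 9 genes in each lymph node library, in CPM on a log axis, with ATOR-4066 (n = 5) left of CD40 mAb (n = 4) and vehicle (n = 4); each point is 1 library and each bar a group mean. Cd209a is at 0.36 to 1.10 CPM in the 4 CD40 mAb libraries, under all others, while Cd209b, Siglec1 and Marco overlap between the groups.

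The neighbouring lectins Cd209e, Cd209c and Cd209d were lower under CD40 mAb in the same libraries without passing the threshold. Cd209e read 1.61, 1.52, 1.07, 6.61 and 3.41 CPM in ATOR-4066 lymph nodes, 0.61, 0.14, 0.30 and 0.95 CPM in CD40 mAb lymph nodes and 10.6, 3.31, 4.26 and 5.43 CPM in vehicle lymph nodes. Every CD40 mAb library was below the lowest of the other groups, and the CD40 mAb difference from vehicle was -3.55 on the log2 scale (SE 0.71, adjusted p 0.054, edgeR). Cd209e was called in the DESeq2 fit (adjusted p 2.64e-06) and in the edgeR fit of these 2 groups alone (adjusted p 0.0331). Cd209c was scarce, with 2 to 7 counts in CD40 mAb libraries, and averaged 0.332 ± 0.128 CPM under ATOR-4066, 0.0892 ± 0.0463 CPM under CD40 mAb and 0.576 ± 0.252 CPM under vehicle (SD, n = 5, 4 and 4). Its CD40 mAb difference from vehicle was -2.66 (SE 0.464, adjusted p 0.0512, edgeR), and it was called by DESeq2 (adjusted p 0.000217), with only these 2 groups fitted (adjusted p 0.033) and with no filter on low counts (adjusted p 0.04).

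Cd209d, the lectin next to Cd209b on the chromosome, read 5.38, 3.53, 3.84, 18.6 and 8.99 CPM in ATOR-4066 lymph nodes, 3.8, 0.16, 4.68 and 7.46 CPM in CD40 mAb lymph nodes and 17.8, 13.6, 15.8 and 19.0 CPM in vehicle lymph nodes. CD40 mAb 3 was by far the lowest library and ATOR-4066 4 alone reached the vehicle levels. The Cd209d difference was -2.04 for CD40 mAb against vehicle (SE 0.792, adjusted p 0.161) and -1.03 for ATOR-4066 against vehicle (SE 0.717, adjusted p 0.482), both by edgeR on the log2 scale. Leaving out each library in turn gave Cd209d values between -2.53 and -1.64 for CD40 mAb, with no call.

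The 3 sinus macrophage genes did not pass the test under either drug, and single libraries spread them widely. Cd209b read 63.4, 69.3, 90.6, 260 and 138 CPM in ATOR-4066 lymph nodes, 201, 10.8, 151 and 356 CPM in CD40 mAb lymph nodes and 144, 147, 158 and 269 CPM in vehicle lymph nodes. CD40 mAb 3 held the lowest value of all 13 libraries and CD40 mAb 5 the highest, so the groups overlapped. The Cd209b difference was 0.00 for CD40 mAb against vehicle (SE 0.749, adjusted p 0.999) and -0.53 for ATOR-4066 against vehicle (SE 0.708, adjusted p 0.727) on the log2 scale by edgeR. Leaving out 1 library moved the CD40 mAb value of Cd209b between -0.57 and 0.40.

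Marco followed the same libraries, with 49.8, 67.8, 67.1, 178 and 93.1 CPM under ATOR-4066, 160, 26.2, 111 and 310 CPM under CD40 mAb and 92.1, 104, 101 and 156 CPM under vehicle. CD40 mAb 3 was again the lowest and CD40 mAb 5 the highest library of Marco. Siglec1 read 20.6, 42.4, 50.4, 81.9 and 57.1 CPM under ATOR-4066, 68.7, 25.3, 87.4 and 165 CPM under CD40 mAb and 47.8, 62.3, 51.3 and 88.8 CPM under vehicle. Both genes overlapped between all groups. The CD40 mAb difference from vehicle was 0.42 for Marco (SE 0.594, adjusted p 0.684) and 0.47 for Siglec1 (SE 0.507, adjusted p 0.585), and the ATOR-4066 difference was -0.32 for Marco (SE 0.561, adjusted p 0.802) and -0.31 for Siglec1 (SE 0.478, adjusted p 0.769), all edgeR log2 values. A p that misses the threshold does not show that the levels were alike.

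Cd209f and Cd209g were highest in vehicle lymph node. Cd209f read 6.77, 0.92, 0.19, 2.19 and 3.35 CPM in ATOR-4066 lymph nodes, 3.38, 0.34, 4.59 and 1.86 CPM in CD40 mAb lymph nodes and 18.8, 11.5, 12.3 and 9.98 CPM in vehicle lymph nodes. Cd209g read 3.51, 0.42, 0.23, 1.32 and 1.89 CPM under ATOR-4066, 1.65, 0.16, 2.19 and 0.79 CPM under CD40 mAb and 9.06, 4.50, 5.70 and 4.11 CPM under vehicle. For both genes every treated library was below every vehicle library, and the 2 drugs overlapped. The Cd209f difference from vehicle was -2.29 under ATOR-4066 (SE 0.816, adjusted p 0.243) and -2.37 under CD40 mAb (SE 0.888, adjusted p 0.15), and that of Cd209g was -1.98 under ATOR-4066 (SE 0.748, adjusted p 0.259) and -2.29 under CD40 mAb (SE 0.821, adjusted p 0.137), so none of the 4 was called by edgeR.

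**Figure D2:**
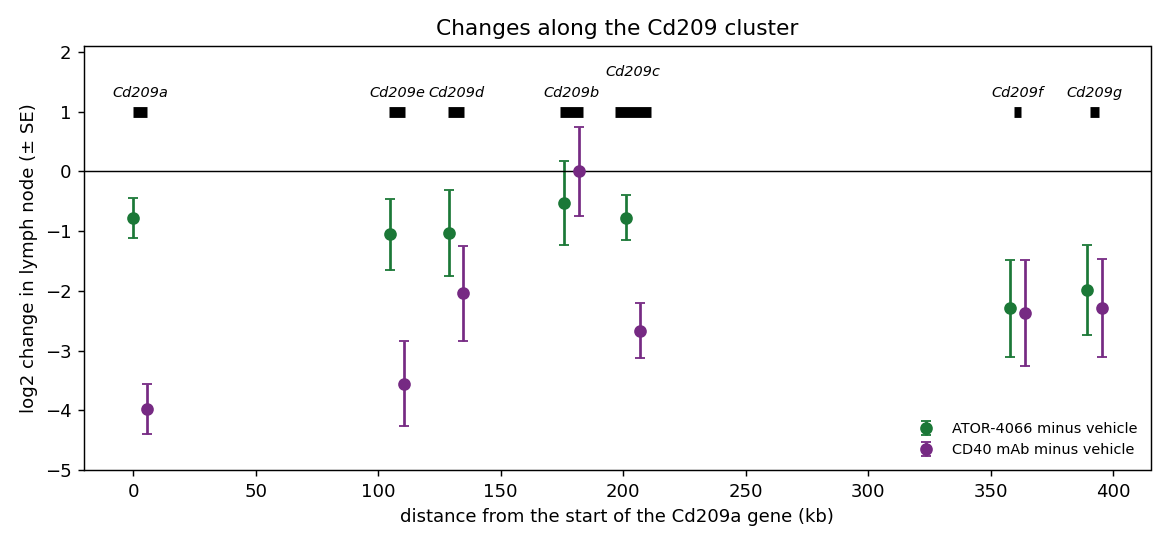
Lymph node log2 differences from vehicle (± SE) of the 7 Cd209 genes by distance in kb from the start of Cd209a, with gene bodies as black bars, ATOR-4066 points drawn just left and CD40 mAb points just right of each gene's midpoint. Cd209a has the lowest CD40 mAb value at -3.97, while Cd209b in the middle of the cluster is at 0.00 under CD40 mAb and -0.53 under ATOR-4066.

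Markers of other cells moved with Cd209f and Cd209g. The summed level of 12 fat cell genes was 2470, 133, 110, 118 and 2840 CPM in ATOR-4066 lymph nodes, 1800, 397, 2050 and 250 CPM in CD40 mAb lymph nodes and 5740, 5000, 3350 and 1990 CPM in vehicle lymph nodes. None of the 12 was at 0 in any group, and the libraries richest in fat cell genes within each drug group, ATOR-4066 1 and 5 and CD40 mAb 2 and 4, also held the most Cd209f. The summed level of 13 resident perivascular macrophage genes was 187 to 379 CPM under ATOR-4066, 209 to 346 CPM under CD40 mAb and at least 361 CPM in each vehicle library. The median log2 difference over these 13 genes was -0.95 for ATOR-4066 and -1.09 for CD40 mAb against vehicle, beside medians of -0.01 and -0.02 over all genes tested, with 0 of 13 called. The 8 epithelial genes, listed as tumor epithelium, had median sums of 40.3 CPM under ATOR-4066, 62 CPM under CD40 mAb and 236 CPM under vehicle. In vehicle whole tumor, on that material's own scale, which is not comparable with lymph node, the same genes summed to 11.2 to 36.3 CPM. Which cells these transcripts came from in lymph node was not tested. The 7 genes of skeletal muscle and skin had median sums of 5.13 CPM under ATOR-4066, 6.79 CPM under CD40 mAb and 28.2 CPM under vehicle. Neither the 8 nor the 7 genes held a called one, beside 0.0643% of all genes for CD40 mAb against vehicle and 0% for ATOR-4066. The part of any of these cell types in the Cd209f and Cd209g levels was not tested.

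Lists of other genes of the cells that carry these lectins held no called gene in lymph node. Of all 18671 genes, 0.0643% were called for CD40 mAb against vehicle and 0% for ATOR-4066. A count of 0 in a list is therefore no sign that its genes were unchanged. The 15 genes listed for type 2 conventional dendritic cells summed to 1170 to 1360 CPM under ATOR-4066, 1260 to 1350 CPM under CD40 mAb and 1120 to 1280 CPM under vehicle, with 0 of 15 called for either drug against vehicle and median log2 differences of -0.01 for ATOR-4066 and -0.11 for CD40 mAb. The 15 genes of monocytes and monocyte-derived dendritic cells summed to 919 to 1420 CPM under ATOR-4066, 1070 to 1390 CPM under CD40 mAb and 825 to 1040 CPM under vehicle, also with 0 of 15 called, and all CD40 mAb sums lay above all vehicle sums while the median log2 difference of the 15 genes was -0.1. Of 18 further sinus and medullary macrophage genes 17 were tested and 0 called, at 856 to 1340 CPM under ATOR-4066, 876 to 1560 CPM under CD40 mAb and 1140 to 1580 CPM under vehicle. Neither the 23 other C-type lectins and scavenger receptors tested nor the 12 niche signals, which include the lymphotoxin and Tnfsf11 (RANKL) genes that maintain sinus macrophages, held a called gene. Among 18 type I interferon-induced genes 1 was called, Irf7, a transcription factor of the interferon response, at 371 ± 77.9 CPM under CD40 mAb and 113 ± 32.2 CPM under vehicle (log2 1.71, SE 0.25, adjusted p 0.0346, edgeR). The 18 genes summed to 1280 to 2300 CPM under ATOR-4066, 1730 to 2480 CPM under CD40 mAb and 1020 to 1330 CPM under vehicle, so all CD40 mAb sums lay above all vehicle sums.

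Across the 13 lymph node libraries the members varied together to differing degrees, given here as a description over libraries that share treatment groups. Cd209b, Marco and Siglec1 were high and low in the same libraries, with Pearson's r of log2-CPM of 0.95 for Cd209b and Marco (0.98 within treatments, Spearman's rho 0.96), 0.92 for Siglec1 and Marco and 0.82 for Cd209b and Siglec1. Without the 2 libraries farthest from the median of Marco these were 0.97 for Cd209b and 0.87 for Siglec1. Cd209a varied with Cd209c (r 0.96, 0.90 within treatments) and Cd209e (0.92 and 0.73), but had an r of 0.32 with Cd209b and of 0.10 with Marco, against -0.01 and -0.16 without the 2 farthest libraries. Within treatments the r of Cd209a was 0.56 with Cd209b and 0.61 with Marco. Within treatments Cd209e also had an r of 0.78 with Marco and 0.75 with Cd209b, and Cd209d one of 0.97 with Cd209b, 0.92 with Marco and 0.63 with Cd209a, so the members did not split into separate sets there. Over all 13 libraries Cd209d had an r of 0.74 with Cd209a and 0.85 with Cd209b, and Cd209f and Cd209g, which share reads, one of 0.99.

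Among 12196 genes ranked, with the members themselves, predicted genes and antigen receptor segments left out, the 5 most like Cd209a over these 13 libraries were Ear2 (r 0.959), a ribonuclease of eosinophils and monocytes, Rasgrp4 (0.922), Zbtb7b (0.911), Ano8 (0.91) and Sytl2 (0.882). Within treatments the r with Cd209a was 0.867 for Ear2, 0.734 for Rasgrp4, 0.423 for Zbtb7b, 0.737 for Ano8 and 0.721 for Sytl2. Ear2 averaged 5.69 ± 2.89 CPM under ATOR-4066, 1.30 ± 0.77 CPM under CD40 mAb and 9.18 ± 2.63 CPM under vehicle (SD, n = 5, 4 and 4). Ear2 was picked for its likeness to Cd209a, so nothing is read from its sharing the order of groups. For Cd209b the 5 most alike were Syndig1l (0.961), Timd4 (0.952), a phosphatidylserine receptor of resident macrophages, Cd33 (0.948), a sialic acid-binding lectin, Cd300ld4 (0.944) and Bpifb3 (0.941). Marco shared Syndig1l (0.971) and Timd4 (0.956) with Cd209b and was followed by Scn3b (0.951), Rufy4 (0.935) and Gfra2 (0.932). For Siglec1 they were Scn3b (0.936), Rgl1 (0.936), Myo9a (0.934), Myo7a (0.909) and Slc18a1 (0.902). Timd4 averaged 95.3 ± 50.8 CPM under ATOR-4066, 107 ± 66.7 CPM under CD40 mAb and 99.3 ± 31 CPM under vehicle (SD, n = 5, 4 and 4).

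**Figure D3:**
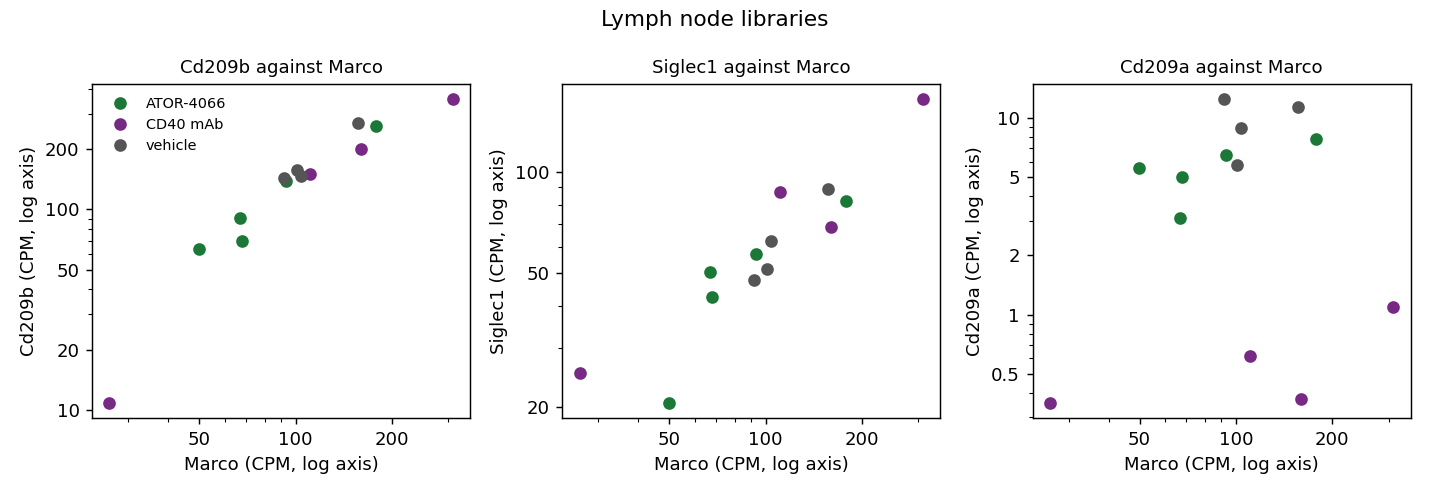
Cd209b, Siglec1 and Cd209a in the 13 lymph node libraries, each against Marco, in CPM on log axes, with 1 point for each library colored by ATOR-4066, CD40 mAb or vehicle. Cd209b and Siglec1 line up with Marco across all treatments (r 0.95 and 0.92), while the 4 CD40 mAb libraries lie low for Cd209a at every level of Marco (r 0.10).

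In blood Cd209a was also low under CD40 mAb. Blood CD40 mAb 2 to 5 were read as the animals of the CD40 mAb lymph nodes, which took part in the choice of Cd209a. Blood is therefore no independent repeat. Cd209a read 1.08, 0.412, 0.995 and 0.619 CPM in ATOR-4066 blood, 0.669, 0, 0.0454, 0 and 0.0546 CPM in CD40 mAb blood and 1.91, 1.23, 1.30, 1.44 and 1.40 CPM in vehicle blood. The counts were 9 to 45 under ATOR-4066, 0 to 22 under CD40 mAb and 76 to 179 under vehicle, and CD40 mAb 1 with 22 counts stood above the other 4 CD40 mAb libraries, which held 0 or 1. Cd209a fell under CD40 mAb relative to vehicle by 2.77 on the log2 scale (SE 0.558, adjusted p 0.00158, edgeR), 6.8-fold lower. All 5 CD40 mAb libraries lay below all vehicle libraries, and 20.4% of all genes did not overlap in this comparison. Cd209a was 1 of 2 members with enough counts to be tested, in a comparison where 34.6% of 12184 genes were called. Leaving out each of the 10 libraries gave log2 values from -5.57 to -2.48, all called, the largest without CD40 mAb 1.

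Under ATOR-4066 the Cd209a difference from vehicle in blood was -0.87 (SE 0.45, adjusted p 0.386, edgeR) with all 4 ATOR-4066 libraries below all vehicle libraries, as groups did not overlap for 10.5% of genes, and it was called when these 2 groups alone were fitted (adjusted p 0.032). In that comparison 0 of 2 members and 0.435% of genes were called. No member had an unadjusted p under 0.05 by edgeR (0 of 2) and DESeq2 called 0, against 1831 and 428 genes. Between ATOR-4066 and CD40 mAb in blood Cd209a differed by 1.90 (SE 0.621, adjusted p 0.0578, edgeR), short of the threshold, with 0 of 2 members called against 13.1% of genes. Both members had an unadjusted p under 0.05 (2 of 2), as did 3209 genes, and DESeq2 called 2 members and 1960 genes. Without CD40 mAb 1 this Cd209a difference was 4.71 with an adjusted p of 1.74e-05, and DESeq2 called it with all libraries (adjusted p 0.0209).

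Siglec1, which marks interferon-exposed monocytes in blood, read 1.45, 1.56, 1.58 and 1.56 CPM in ATOR-4066 blood, 0.274, 1.22, 1.05, 0.579 and 0.655 CPM in CD40 mAb blood and 1.18, 1.39, 1.28, 0.837 and 0.475 CPM in vehicle blood. The ATOR-4066 libraries lay close together above both other groups, which overlapped, in comparisons where 10.5% of genes did not overlap against vehicle and 6.04% against CD40 mAb. The Siglec1 differences were 0.58 for ATOR-4066 against vehicle (SE 0.308, adjusted p 0.399), -0.48 for CD40 mAb against vehicle (SE 0.34, adjusted p 0.291) and 1.06 for ATOR-4066 against CD40 mAb (SE 0.358, adjusted p 0.0633), on the log2 scale by edgeR. The last was called without CD40 mAb 2 (1.31, adjusted p 0.0397) and by DESeq2 (adjusted p 0.0441). The other 7 members reached at most 13 counts in any blood library.

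The makeup of blood moved with treatment too. Of 18 interferon-induced genes 17 rose under CD40 mAb relative to vehicle, as did 11 of 11 neutrophil genes, while 9 of 10 B cell genes fell, beside 34.6% of all genes called in either direction. Of 10 erythroid and platelet genes 9 rose, with a median log2 difference of 1.88, and the scaling factors of the libraries were 0.314 to 0.981 under CD40 mAb and 1.65 to 2.35 under vehicle, which set the scale of the Cd209a values. With haemoglobin genes removed the Cd209a difference was -2.79 (adjusted p 0.0015, edgeR). Of 11 type 2 dendritic cell genes tested 7 fell and 1 rose, with sums of 41.2 to 67.8 CPM under CD40 mAb and 75.3 to 81.8 CPM under vehicle, and of 15 monocyte genes 3 rose and 3 fell, a share near that of all genes. The part of these shifts in the Cd209a level was not tested.

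**Figure D4:**
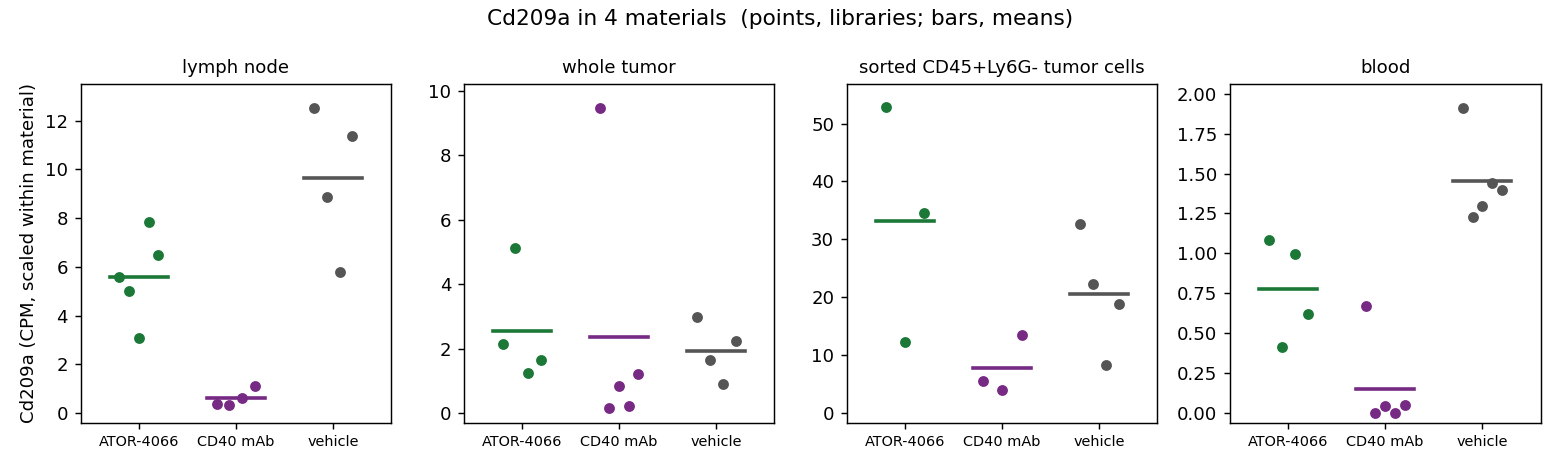
Cd209a in every library of lymph node, whole tumor, sorted CD45+Ly6G- tumor cells and blood, in CPM within each material, with ATOR-4066 left of CD40 mAb and vehicle; points are libraries and bars are group means. The CD40 mAb libraries are under all vehicle libraries in lymph node and blood, where 17.7% and 20.4% of genes did not overlap, and overlap with them in tumor and sorted cells.

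In whole tumor no member was called under any comparison by edgeR. The counts were 0 of 9 for ATOR-4066 against vehicle, beside 1.32% of 18454 genes, 0 of 9 for CD40 mAb against vehicle, beside 0% of genes, and 0 of 9 for ATOR-4066 against CD40 mAb, beside 0.0325% of genes. The 243 genes behind the 1.32% became 0 without any 1 vehicle tumor or without ATOR-4066 1 or 2, 5 without ATOR-4066 4 and 158 without ATOR-4066 5. At an unadjusted p under 0.05 there were 0 members for ATOR-4066 against vehicle, 3 for CD40 mAb against vehicle and 0 between the drugs, DESeq2 called 0 members in each, and for CD40 mAb against vehicle 2205 genes had an unadjusted p under 0.05 and DESeq2 called 35. Cd209a read 2.15, 5.13, 1.24 and 1.66 CPM in ATOR-4066 tumors, 9.46, 0.148, 0.831, 0.211 and 1.22 CPM in CD40 mAb tumors and 2.97, 1.65, 0.897 and 2.26 CPM in vehicle tumors. CD40 mAb 1 was the highest and CD40 mAb 2 and 4 the lowest libraries, so the CD40 mAb group covered the whole range. Its difference from vehicle was 0.29 (SE 0.978, adjusted p 0.898).

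Per length, Cd209f was the most abundant Cd209 lectin of whole tumor, with 9.09 ± 4.55 CPM per kb under ATOR-4066, 16.2 ± 14.3 CPM per kb under CD40 mAb and 4.75 ± 0.855 CPM per kb under vehicle (SD, n = 4, 5 and 4). Cd209f read 21.4, 28.7, 7.74 and 14.4 CPM in ATOR-4066 tumors, 75.4, 4.95, 13.9, 21.8 and 45 CPM in CD40 mAb tumors and 9.48, 9.71, 7.21 and 11.3 CPM in vehicle tumors. The vehicle libraries lay close together, CD40 mAb 1 and 5 were the highest, and all 3 groups overlapped. The Cd209f difference from vehicle was 0.94 under ATOR-4066 (SE 0.64, adjusted p 0.38) and 1.77 under CD40 mAb (SE 0.631, adjusted p 0.412), and that of Cd209g was 1.12 under ATOR-4066 (SE 0.693, adjusted p 0.332) and 1.87 under CD40 mAb (SE 0.684, adjusted p 0.412), all by edgeR.

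Siglec1 in whole tumor read 51.5, 84.7, 224 and 48.6 CPM under ATOR-4066, 71.1, 137, 147, 86.5 and 131 CPM under CD40 mAb and 151, 117, 123 and 107 CPM under vehicle, with overlap of all groups. Marco read 1.83, 2.22, 9.16 and 1.97 CPM under ATOR-4066, 4.63, 1.46, 3.21, 5.45 and 19.9 CPM under CD40 mAb and 2.17, 2.82, 1.20 and 0.419 CPM under vehicle. CD40 mAb 5 was the highest Marco library of the tumors. That library also held 1330 CPM of 10 summed T cell genes, where the other 4 CD40 mAb tumors held 39.4 to 154 CPM, and its part in the Marco level was not tested. The Marco difference was 2.07 for CD40 mAb against vehicle (SE 0.81, adjusted p 0.412, edgeR). Cd209b averaged 2.05 ± 1.61 CPM in ATOR-4066 tumors, 1.99 ± 1.68 CPM in CD40 mAb tumors and 1.26 ± 1.02 CPM in vehicle tumors (SD, n = 4, 5 and 4). Cd209d averaged 2.85 ± 2.38 CPM in ATOR-4066 tumors, 3.25 ± 4.35 CPM in CD40 mAb tumors and 2.03 ± 1.06 CPM in vehicle tumors. Cd209c and Cd209e had group means of 0.515 CPM or less.

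Cd209f and Cd209g were the members called for a response that differed between lymph node and tumor. The CD40 mAb effect in lymph node minus that in tumor was -4.10 for Cd209f (SE 0.972, adjusted p 0.0105) and -4.05 for Cd209g (SE 1.005, adjusted p 0.0139) on the log2 scale, in a joint limma fit of all materials (voomLmFit). For ATOR-4066 it was -3.64 for Cd209f (SE 0.936, adjusted p 0.0152) and -3.25 for Cd209g (SE 0.958, adjusted p 0.0305). These were 2 of 9 members in each case, beside 5.5% of 21410 genes for CD40 mAb and 8.47% for ATOR-4066. At an unadjusted p under 0.05 there were 6 members and 4409 genes for CD40 mAb, and 2 members and 5052 genes for ATOR-4066. Under 6 alternative settings the CD40 mAb value was -3.88 to -3.47 for Cd209e and -2.99 to -2.55 for Cd209a. It was -3.015 to -2.306 for Cd209d, and none of these was called. That of Siglec1 was 0.10 to 0.41, and that of Cd209b crossed 0. The 2 drugs were set against the same vehicle libraries. Cd209f and Cd209g both lost the call when the lymph node and tumor libraries alone were fitted with no animal block, at -4.07 (adjusted p 0.0701) and -4.03 (adjusted p 0.073) for CD40 mAb and -3.68 (adjusted p 0.0596) and -3.27 (adjusted p 0.0847) for ATOR-4066. With the 2 left-out libraries kept in, the values were -3.71 (adjusted p 0.157) and -3.58 (adjusted p 0.18) for CD40 mAb and -3.31 (adjusted p 0.14) and -2.87 (adjusted p 0.227) for ATOR-4066.

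Leaving out each of 17 libraries in turn kept the Cd209f call every time for CD40 mAb (-4.60 to -3.25) and for ATOR-4066 (-4.10 to -3.0). Cd209g lost the CD40 mAb call without lymph node CD40 mAb 3 (-3.23, adjusted p 0.0578). It kept the ATOR-4066 call in 8 of 17 such fits and lost it without lymph node ATOR-4066 2 or 3, lymph node vehicle 1, tumor ATOR-4066 1 or 2 or any of the 4 vehicle tumors, with adjusted p up to 0.0863. Without tumor CD40 mAb 2 the CD40 mAb effect differed for Cd209a (-3.51, adjusted p 0.0372) and Cd209e (-4.31, adjusted p 0.0273) as well. In tumor, the 13 perivascular macrophage genes summed to 556 to 1310 CPM under ATOR-4066, 417 to 1530 CPM under CD40 mAb and 424 to 574 CPM under vehicle, with CD40 mAb 1 and 5, the 2 tumors richest in Cd209f, at 1380 and 1530 CPM, and their part in the difference was not tested.

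**Figure D5:**
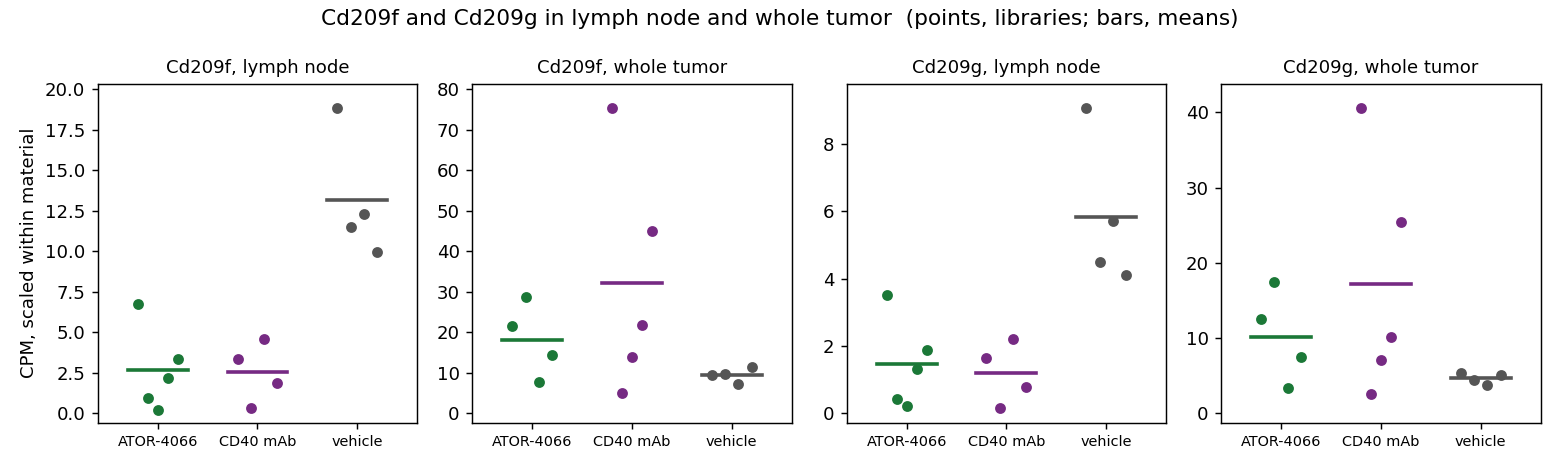
Cd209f and Cd209g in each lymph node and whole tumor library, in CPM on a linear axis within each material, with ATOR-4066 left of CD40 mAb and vehicle. Points are libraries and bars are group means. In lymph node all treated libraries are under all vehicle libraries, and in tumor the groups overlap with means of 32.2 CPM under CD40 mAb and 9.44 CPM under vehicle for Cd209f.

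Between lymph node and blood the ATOR-4066 effect differed for 0 of 9 members in the same limma fit, beside 0.883% of genes. At an unadjusted p under 0.05 there was 1 member, and DESeq2 was not run on the joint fit. The CD40 mAb effect differed for 3 of 9, Cd209c (-2.34, adjusted p 0.0184), Cd209e (-4.39, adjusted p 0.00413) and Cd209g (-4.85, adjusted p 0.0314), beside 22.9% of genes. These 3 genes had at most 13 counts in any blood library, so the blood side of the contrast rests on counts near 0. Cd209c lost the call with the 2 left-out libraries kept in (adjusted p 0.0681) and without blood CD40 mAb 2 (-1.92, adjusted p 0.0591), and Cd209g lost it without blood vehicle 1 or 4, blood CD40 mAb 4 or lymph node CD40 mAb 3, with adjusted p up to 0.0642. For Cd209a this difference was 0.08 (SE 1.018, adjusted p 0.959).

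In sorted CD45+Ly6G- tumor cells 7 of 9 members were tested, and Cd209g and Marco were not, with at most 8 and 42 counts. Cd209a read 52.8, 12.3 and 34.5 CPM under ATOR-4066, 5.61, 3.98 and 13.6 CPM under CD40 mAb and 32.7, 22.2, 8.35 and 18.9 CPM under vehicle. CD40 mAb 6 and 7 were the lowest libraries, and the groups overlapped through ATOR-4066 9, CD40 mAb 10 and vehicle 9. The Cd209a difference was 0.69 for ATOR-4066 against vehicle (SE 0.571, adjusted p 0.47), -1.41 for CD40 mAb against vehicle (SE 0.604, adjusted p 0.24) and 2.11 for ATOR-4066 against CD40 mAb (SE 0.643, adjusted p 0.0706), all by edgeR on the log2 scale. DESeq2 called the last (adjusted p 0.00445).

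Cd209c, Cd209d and Cd209e had their lowest group means under CD40 mAb in sorted cells too. Cd209c read 2.39, 0.478 and 1.57 CPM under ATOR-4066, 0.241, 0.281 and 0.174 CPM under CD40 mAb and 2.75, 1.11, 2.17 and 4.77 CPM under vehicle, with 6 to 11 counts in the CD40 mAb libraries. It fell under CD40 mAb relative to vehicle by 3.52 on the log2 scale (SE 0.712, adjusted p 0.0487, edgeR), as 1 of 7 members, beside 1.09% of 16667 genes. The call was lost with DESeq2 size factors (adjusted p 0.0508), and without vehicle 6, 9 or 10 or any 1 CD40 mAb library, where the value lay between -3.68 and -3.09 with adjusted p up to 0.194.

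Relative to CD40 mAb, 2 of 7 members rose under ATOR-4066, Cd209c by 2.66 (SE 0.71, adjusted p 0.0467) and Cd209d by 2.89 (SE 0.641, adjusted p 0.0278) on the log2 scale by edgeR, beside 8.23% of genes. Cd209d read 7.45, 1.58 and 2.1 CPM under ATOR-4066, 0.434, 0.485 and 0.580 CPM under CD40 mAb and 2.07, 0.947, 1.34 and 2.00 CPM under vehicle. CD40 mAb libraries were all lowest, and ATOR-4066 6 was the highest. Both calls were lost when these 2 groups alone were fitted (adjusted p 0.13 for Cd209c and 0.105 for Cd209d), without any 1 CD40 mAb library and without ATOR-4066 6 (2.11 and 1.86), and that of Cd209c also without ATOR-4066 10 (adjusted p 0.0569) and with no filter on low counts (adjusted p 0.0522). Cd209e read 4.76, 0.789 and 1.64 CPM under ATOR-4066, 0.241, 0.281 and 0 CPM under CD40 mAb and 0.234 to 1.045 CPM under vehicle. Its difference between ATOR-4066 and CD40 mAb was 3.75 (SE 1.148, adjusted p 0.0693, edgeR), and its CD40 mAb and vehicle libraries overlapped. Cd209c, Cd209d and Cd209e each had all CD40 mAb libraries below all ATOR-4066 libraries, as groups did not overlap for 30.6% of genes here and for 21.5% between CD40 mAb and vehicle.

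Against vehicle, 0 of 7 members were called under ATOR-4066 by edgeR, beside 11.9% of genes. At an unadjusted p under 0.05 there were 3 members and 4840 genes, and DESeq2 called 1 member and 3424 genes. Siglec1 came nearest, with 97.1, 18.4 and 201 CPM under ATOR-4066, 306, 804 and 521 CPM under CD40 mAb and 554, 327, 590 and 558 CPM under vehicle. All ATOR-4066 libraries were below all others, with ATOR-4066 9 lowest, in comparisons where 28.3% of genes did not overlap against vehicle and 30.6% against CD40 mAb. The Siglec1 difference was -2.27 for ATOR-4066 against vehicle (SE 0.661, adjusted p 0.052) and -2.37 for ATOR-4066 against CD40 mAb (SE 0.687, adjusted p 0.0614) by edgeR. The difference from vehicle was called without ATOR-4066 9 (-1.77, adjusted p 0.047), without ATOR-4066 10 (-3.14, adjusted p 0.0159) and by DESeq2 (adjusted p 0.0102), and that from CD40 mAb without ATOR-4066 10 (-3.26, adjusted p 0.0187) and by DESeq2 (adjusted p 0.0137).

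Other cells in the sorted libraries moved with these values. Under ATOR-4066, 10 of 10 T cell genes rose against vehicle, beside 11.9% of all genes called, and against CD40 mAb, beside 8.23%, with sums of 2050 to 4990 CPM under ATOR-4066, 342 to 725 CPM under CD40 mAb and 733 to 1120 CPM under vehicle. The 18 sinus and medullary macrophage genes without the members summed to 787 to 4290 CPM under ATOR-4066, 6090 to 10800 CPM under CD40 mAb and 5850 to 7190 CPM under vehicle. Against vehicle 4 of 17 tested fell, Axl, C1qa, C1qb and C1qc, a receptor for dying cells and the chains of complement C1q. Of 18 type I interferon-induced genes, the class to which Siglec1 belongs, 7 fell under ATOR-4066 relative to vehicle and 0 were called under CD40 mAb, with sums of 1840 to 6300 CPM under ATOR-4066, 3490 to 8370 CPM under CD40 mAb and 7450 to 9330 CPM under vehicle. The part of these shifts in the Siglec1 and Cd209 levels was not tested.

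Among vehicle samples, set on 1 scale in the joint fit, 5 of 9 members were higher in lymph node than in whole tumor, beside 61.6% of 21410 genes called in either direction. Their log2 differences were 7.40 for Cd209b (SE 1.806, adjusted p 0.000548), 6.39 for Marco (SE 1.228, adjusted p 2.1e-05), 4.44 for Cd209e (SE 0.913, adjusted p 6.55e-05), 3.12 for Cd209d (SE 0.847, adjusted p 0.00159) and 2.32 for Cd209a (SE 0.683, adjusted p 0.00337). Cd209f at 0.42 (adjusted p 0.573), Cd209g at 0.21 (adjusted p 0.805), Cd209c at 1.22 (adjusted p 0.0926) and Siglec1 at -1.04 (adjusted p 0.0662) were not called. With the 2 left-out libraries kept in, Cd209b was no longer called (5.45, adjusted p 0.101), and Siglec1 was called as lower in lymph node without lymph node vehicle 5 (-1.22, adjusted p 0.0374).

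Lymph node of vehicle animals exceeded sorted tumor leukocytes for 6 of 9 members, Cd209b, Cd209d, Cd209e, Cd209f, Cd209g and Marco, and was lower for Siglec1 (-3.21), Cd209c (-2.36) and Cd209a (-1.18, adjusted p 0.00921), beside 57.8% of genes. Without sorted vehicle 6 the Cd209a value was -0.86 with an adjusted p of 0.113. With only these 2 materials fitted, Cd209b (adjusted p 0.152) and Marco (adjusted p 0.0822) were not called, nor was Cd209b with the left-out libraries kept in (adjusted p 0.0562). The sorted cells were in turn higher than whole tumor for Cd209c (3.58), Cd209a (3.50) and Siglec1 (2.17) and lower for Cd209g (-7.98) and Cd209f (-7.45), 5 of 9 members beside 57.8% of genes. In the sorted vehicle libraries Cd209f and Cd209g had at most 5 and 1 counts, where vehicle tumors had 362 to 704 and 188 to 319.

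Against vehicle blood, 7 of 9 members were higher and 2 lower in lymph node, beside 63.1% of genes. Marco (8.98) and Cd209b (9.45) differed by fitted log2 values that rest on blood counts of at most 4 and 2, and Cd209f and Cd209g were at 0 counts in all 5 vehicle blood libraries. Cd209c was lower in lymph node (-1.03, SE 0.454, adjusted p 0.0466), a call lost with DESeq2 size factors, with no filter and without any of blood vehicle 1, 3 or 4 or lymph node vehicle 2, 4 or 5, with adjusted p between 0.0514 and 0.156. Cd209a was lower in lymph node by 1.10 on the log2 scale of the joint fit (SE 0.41, adjusted p 0.0187), although its CPM within each material averaged 9.63 ± 2.97 in lymph node (SD, n = 4) and 1.46 ± 0.267 in blood (SD, n = 5). The same was so for Cd209c, at 0.576 ± 0.252 CPM in lymph node and 0.0799 ± 0.0359 CPM in blood, so the 2 scales gave opposite directions for both genes between these materials. Without blood vehicle 1 or lymph node vehicle 4 the joint value of -0.98 or -0.86 was not called (adjusted p 0.0696 and 0.0637).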

How the data were processed

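RNA-seq libraries from lymph node, whole tumor, sorted tumor leukocytes and blood were compared within each material. Per the labels' protocols, RNA was taken with PureLink or RiboPure kits and polyadenylated RNA was prepared with the Illumina Stranded mRNA kit. Per the submitters' processing notes STAR and the build GRCm38 were used. The values deposited are estimated counts for each gene, merged from salmon per the deposited table's name, with 9.0% of values not whole (tolerance 0.001). They were rounded here. Of its 57010 identifiers 52029 were in GENCODE vM21, from which positions and exon lengths came, and promoters came from RefSeq.

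Within each material genes passing filterByExpr (count minimum 10, total minimum 15) were scaled by TMM and tested with the robust quasi-likelihood test of edgeR 4.0.16 in R 4.3.3, all 3 treatments in 1 fit. P-values were adjusted by Benjamini-Hochberg over all genes tested and called under 0.05, and each SE is the log2 change over the square root of F. CPM refer to the TMM-scaled library sizes. Materials were compared in 1 voomLmFit (limma 3.58.1) with the animal as a random block, whose estimated correlation was -0.02, and weights by material. DESeq2 1.42.0, other scaling, no filter, 2-group fits, a replicate block, haemoglobin removal, the left-out libraries kept in and each library left out were alternatives. The joint fits of only the compared materials, and those leaving out a library, were added after seeing the data and have no animal block. Likeness was Pearson's r of log2-CPM (prior count 2) over the 13 lymph node libraries among genes averaging at least 1, 5 genes named for each of 4 members. Checks on simulated data covered the edgeR test of CD40 mAb against vehicle in each material. They also covered the lymph node minus tumor contrast for CD40 mAb in the joint fit. The other tests and contrasts were not checked this way.

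The members, gene lists and tests were chosen with earlier results of these data known. Named besides the members are the 4 genes of smallest p at most from a list in a comparison. Replicate numbers recur across treatments but belong to different animals. Correlations of same-numbered deviations ran from -0.39 to 0.36 and were in no comparison all above 0.1, so the numbers do not pair the samples. The labels do not say whether libraries were prepared or sequenced in batches. Depth limits Cd209c in lymph node, whole tumor and CD40 mAb sorted cells, and most members in blood, where counts fell to 0. In vehicle sorted cells Cd209c had 34 to 183 counts.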

Additional observations from a re-analysis of the deposited data

Results flagged for a closer look

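In 4 of 67 groups of libraries 1 library lay far from the rest, by the ratio of its gap to the group's range, where chance gives about 1 in 20 groups. Cd209b in lymph node vehicle 5 was at 269 CPM with the other 3 at 144 to 158 CPM (ratio 0.853). Marco in whole tumor ATOR-4066 4 was at 9.16 CPM with the other 3 at 1.83 to 2.22 CPM (ratio 0.881). Siglec1 in sorted vehicle 7 was at 327 CPM with the other 3 at 554 to 590 CPM (ratio 0.894). Cd209a in blood CD40 mAb 1 was at 0.669 CPM with the other 4 at 0 to 0.0546 CPM (ratio 0.712).

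In 7 results the effect of a drug against vehicle differed between lymph node and another material in the joint limma fit. Against whole tumor the CD40 mAb effect differed for Cd209f (-4.1) and Cd209g (-4.05) and the ATOR-4066 effect for Cd209f (-3.64) and Cd209g (-3.25), and these genes share reads. Against blood the CD40 mAb effect differed for Cd209c (-2.34), Cd209e (-4.39) and Cd209g (-4.85), where blood counts were at most 13 and Cd209g was at 0 in all vehicle libraries, so the fitted values are no bound.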

How the results depend on the processing

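The log2 directions of all called members held under every alternative run. Values that were not called did cross 0, such as Cd209b in lymph node (-0.57 to 0.40) and Cd209a in whole tumor (-1.68 to 0.59), both CD40 mAb against vehicle leaving out a library. Of the single-gene values under alternatives 2338 kept their side of the threshold or had no test, 22 gained a call and 65 lost one. Of the counts of called members 269 stayed or changed too little to be listed as moved, and 46 moved. The values with no test are those of ATOR-4066 against CD40 mAb in lymph node. For Cd209a these are 11 log2 values, which were tallied with the counts of called members. In lymph node, CD40 mAb against vehicle, 1 called member became 3 by DESeq2, 2 with no filter, 3 with only the 2 groups fitted, 0 with vehicle 3 kept in, and 0 to 1 when 1 library was left out. In sorted cells, CD40 mAb against vehicle, 1 became 2 by DESeq2, 0 with DESeq2 size factors and 0 to 1 leaving out a library. ATOR-4066 against vehicle went from 0 to 1 by DESeq2 and 0 to 1 leaving out a library. ATOR-4066 against CD40 mAb there gave 2, but 5 by DESeq2, 1 with no filter, 0 with only the 2 groups, and 0 to 2 leaving out a library. In blood, ATOR-4066 against CD40 mAb gave 0, but 2 by DESeq2 and up to 1 leaving out a library, and ATOR-4066 against vehicle gave 0, but 1 with only the 2 groups. The lymph node minus tumor effect gave 2 members for each drug. With the left-out libraries kept in, or only these materials fitted, each became 0. With no filter that of ATOR-4066 was 1, and leaving out a library gave 1 to 2 for ATOR-4066 and 1 to 4 for CD40 mAb. The causes of these changes were not tested, beyond fewer libraries or genes in some fits.

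The replicate block, for numbers that do not pair the samples, took the called members of sorted cells to 0 in both comparisons with calls (Cd209c at adjusted p 0.172 and 0.138, Cd209d at 0.0938) and moved no other count by over 1.5 times. Depth limits Cd209c, at 2 to 7 counts in CD40 mAb lymph nodes, and 7 members in blood.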

Other observations

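In sorted CD45+Ly6G- tumor cells, genes of resident perivascular macrophages rose under CD40 mAb relative to vehicle in 3 of 13 cases, beside 1.09% of all genes called in either direction (0.0122% without vehicle 10 to 1.54% without CD40 mAb 7). They were Folr2 (78.5 ± 47.3 CPM under CD40 mAb and 4.24 ± 0.698 CPM under vehicle, log2 4.21, adjusted p 0.0191), a folate receptor, Fcna (6.12 ± 3.61 CPM under CD40 mAb and 0.583 ± 0.343 CPM under vehicle, log2 3.38, adjusted p 0.0367), a ficolin that binds sugars, and Cbr2 (59.0 ± 55.3 CPM under CD40 mAb and 4.53 ± 1.14 CPM under vehicle, log2 3.70, adjusted p 0.04), a carbonyl reductase (SD, n = 3 and 4, edgeR). Cd209f read 0.698, 0.919 and 1.19 CPM under CD40 mAb and 0.0211, 0.163, 0 and 0.0781 CPM under vehicle in the same libraries. Its difference of 3.84 on the log2 scale (SE 1.387, adjusted p 0.169, edgeR) was not called, and DESeq2 called it (adjusted p 0.0356). The CD40 mAb counts of Cd209f were 29 to 41 and the vehicle counts 0 to 5.

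The CPM of the left-out libraries are on library sizes scaled within each material with these libraries included. The library labelled lymph node vehicle 3 held 2.40 CPM of Cd209a, 3.19 CPM of Cd209f and 163.5 CPM of Siglec1. The Siglec1 value was above the 47.7 to 87.5 CPM of the other vehicle lymph nodes. The library labelled whole tumor ATOR-4066 3 held 3.11 CPM of Cd209a, 21.2 CPM of Cd209f and 42.5 CPM of Siglec1.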
